A study of Rattus norvegicus with 20 samples.

Results

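The comparison of zymosan with LPS asks how rat microglia given a yeast cell wall preparation differed from microglia given bacterial endotoxin. It rests on the 4 zymosan and the 4 LPS libraries, 8 of the 20 in the series, and on the 8858 of 17310 gene symbols with at least 1 FPKM (fragments counted per length of transcript and per size of the library) in at least 4 of the 20 libraries. All cells were microglia, the resident macrophages of the brain, from the cortex of male Sprague-Dawley rats aged 21 days, purified by immunopanning on the myeloid surface integrin CD11b. They were cultured for 5 days without serum before the agents were added in a 50% medium change. The groups used here received zymosan (100 ug/mL), the synthetic lipopeptide PAM3CSK4 (1 ng/mL), LPS (1 ng/mL) or PBS as vehicle, with 4 libraries each, and 4 morphine libraries (1 uM) entered the gene filter, the estimate of the spread and the library sets but no contrast. Each agonist was given at 1 dose, so that agonist and dose cannot be told apart, and how long the cells were exposed is not stated.

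LPS is sensed by TLR4 with its co-receptors CD14 and MD-2, and signals through the adaptor MyD88 and, from endosomes, through TRIF, which leads to type I interferon. Zymosan carries beta-glucan, bound by the C-type lectin dectin-1 (gene Clec7a), which signals through the kinase SYK and the adaptor CARD9, and ligands of TLR2, which pairs with TLR1 or TLR6 and signals through MyD88. It is a particle and is taken up by phagocytosis. PAM3CSK4 is sensed by TLR2 with TLR1 and is soluble, so it stands beside zymosan here as a second agonist of TLR2.

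The markers of microglia and macrophages summed to 1847, 2045 and 2496 FPKM (lowest, median and highest of 4) in zymosan libraries and to 1616, 1874 and 2396 FPKM in LPS libraries. Tyrobp, a signalling adaptor of myeloid cells, averaged 1182 ± 266 FPKM with zymosan and 1156 ± 364 FPKM with LPS (SD, n = 4 each), whereas P2ry12, the purinergic receptor that marks resting microglia, was at 0, 0.288, 0.228 and 0.527 FPKM with zymosan and 0.102, 0.241, 0 and 0.383 FPKM with LPS. The astrocyte list summed to at most 2.93 and 2.97 FPKM with zymosan and LPS, and Gfap and Aqp4 were at 0 in all 8 libraries. The oligodendrocyte, neuron, endothelial and lymphocyte lists reached at most 31.7 FPKM in any of the 8, with Mog, Mag, Rbfox3, Cldn5 and Kdr at 0 throughout. Other members were present: Cnp averaged 12.9 and 10.8 FPKM with zymosan and LPS, and Tubb3 13.2 and 11.3 FPKM. Flt1 averaged 14.7 and 10.3 FPKM, and Cd4 15.8 and 18.2 FPKM. The neutrophil list summed to at most 6.25 and 5.29 FPKM with zymosan and LPS. The perivascular macrophage list summed to 49.9, 67.4 and 198 FPKM with zymosan and 103.6, 134 and 156 FPKM with LPS, nearly all of it from Pf4, while Cd163 was at 0.

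The 20 libraries fell into 2 sets that the labels do not name. Once group means were subtracted, the leading principal component held 63.2% of the remaining variance and set 7 libraries apart from 13. The smaller set held 1 zymosan library (replicate 1) and 2 LPS libraries (replicates 1 and 2), and the ribosomal RNA gene Rn18s was listed at 0 in zymosan replicate 1 and LPS replicate 2 but at 6244 FPKM in LPS replicate 1. The sets are therefore unequally shared between the groups. Over all 8858 genes the median difference, zymosan minus LPS on the log2(FPKM + 1) scale, was 0.19. It was 0.10 with a term for the library set and 0.01 after rescaling of the libraries by median ratios, so that differences of single genes and lists are to be read against 0.19. Depth is not stated in the files. Low FPKM values moved in steps between libraries, and these steps put the depth of the 8 libraries between 0.891 and 1.41 times that of zymosan replicate 3.

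At an adjusted p under 0.05 (limma, Benjamini-Hochberg over 8858 genes), 8 genes differed between zymosan and LPS, 0.0903% of those tested: 3 were higher with zymosan (0.0339%) and 5 were lower (0.0564%). At an unadjusted p under 0.05 there were 719 genes, 647 higher (7.3%) and 72 lower (0.813%). The groups did not overlap for 435 genes, of which 397 were higher with zymosan (4.48%) and 38 lower (0.429%). The 95% interval of the difference lay within 1 log2 unit either way for 71.9% of genes. Some of the other genes had an interval wholly beyond 1 log2 unit, such as Ccl5 (-3.34 to -1.62), Lcn2 (-1.97 to -1.08) and Crip2 (-1.91 to -1.03). For genes whose interval held values on both sides of that limit, a difference of 1 unit was not settled by these libraries. On the log2(FPKM + 1) scale 1 unit is about 2-fold only for genes well above 1 FPKM. For low genes it is more. Nusap1, at a mean of 1.79 FPKM with zymosan and 0.445 FPKM with LPS, differed by 0.955 units. With a term for the library set, 96 genes passed, 81 higher (0.914%) and 15 lower (0.169%), and all 8 genes were among them. With that term and rescaling together the balance turned, with 28 genes higher (0.316%) and 37 lower (0.418%); 28 of the 81 higher and all 15 lower calls of the set term were among these. Of the genes named below, Il10, Cd36, Fcer1g, Pcna, Ccnd1, Nusap1, Cdc20, Ctsb and Dpp7 passed with the set term and not with both. The sets were found in these data, so p-values with that term may be too small. Such calls are named below as made with the set term. Leaving out 1 library left 4, 2, 2 and 9 called genes without zymosan replicates 1 to 4, and 3, 5, 3 and 6 without LPS replicates 1 to 4. Lcn2 and Crip2 passed in each of these 8 fits, and Ccl5, Stap2, Calm2, Rrm2, Dnase2 and Nradd each missed the threshold in at least 1, with no change of direction. The main fit took no account of the replicate number, which some genes followed in all 5 groups. A block for that number called more genes, as given below.

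**Figure D1:**
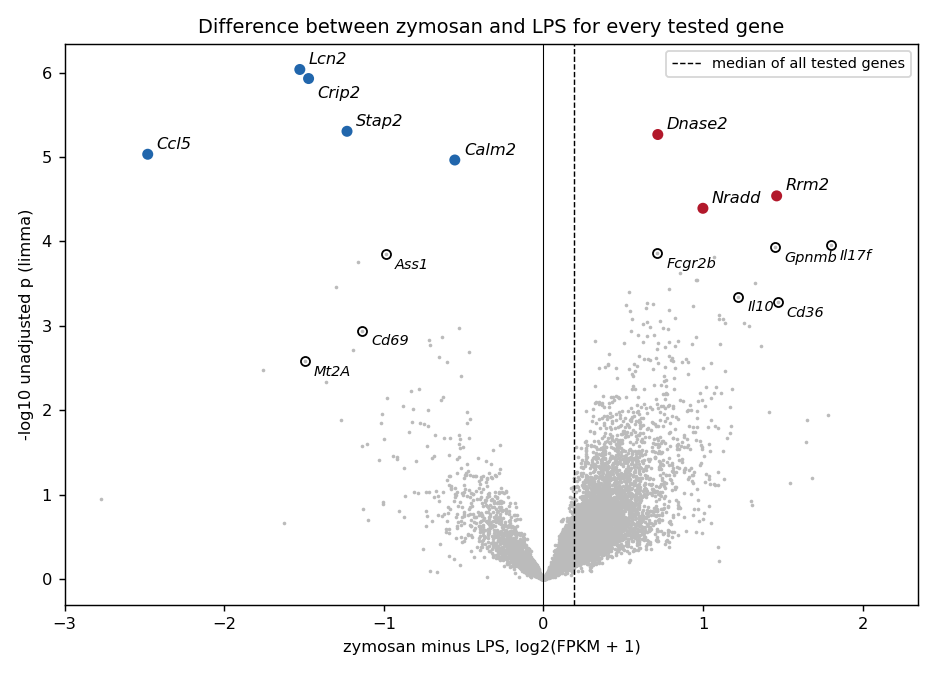
Difference between zymosan and LPS for each of the 8858 tested genes (horizontal axis, zymosan minus LPS on the log2(FPKM + 1) scale) against the unadjusted p of limma (vertical axis, -log10). Coloured points are the 8 genes with an adjusted p under 0.05, 3 higher (red) and 5 lower (blue) with zymosan, open circles are some named genes that did not pass, and the dashed line marks the median of all genes, 0.19.

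Genes that fell with zymosan relative to LPS were led by the chemokine Ccl5 and by lipocalin 2 (Lcn2). Ccl5, which attracts T cells and monocytes, had 6.57, 2.96, 4.01 and 6.77 FPKM in zymosan libraries 1 to 4, against 40.3, 38.6, 25.5 and 25 FPKM in LPS libraries 1 to 4. The groups lay far apart, and the log2 difference was -2.48 (SE 0.41, adjusted p = 0.016). PAM3CSK4 libraries had 2.31, 3.5, 6.28 and 8.21 FPKM, spanning the range of zymosan, and PBS libraries had 0, 1.73, 0.562 and 2.11 FPKM. Between zymosan and PAM3CSK4 the difference of Ccl5 was 0.06 (SE 0.41).

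Lcn2, a secreted protein that binds bacterial siderophores and withholds iron, had 256, 309, 239 and 311 FPKM with zymosan, against 595, 1036, 869 and 761 FPKM with LPS. Every zymosan library was below every LPS library, with a difference of -1.53 (SE 0.21, adjusted p = 0.00522). With PAM3CSK4 it had 571, 608, 541 and 431 FPKM, between the other agonists, and with PBS 2.15, 4.38, 3.65 and 2.58 FPKM. Zymosan minus PAM3CSK4 was -0.94 (SE 0.21), which did not pass (adjusted p = 0.462).

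Crip2, a small LIM domain protein, had 8.74, 8.44, 5.92 and 8.47 FPKM with zymosan, against 27.3, 24.5, 20.2 and 22.4 FPKM with LPS, a difference of -1.47 (SE 0.21, adjusted p = 0.00522). PBS libraries had 10.8, 6.37, 6.78 and 4.95 FPKM. Zymosan libraries thus lay within the range of the vehicle, and LPS libraries above both. Stap2, an adaptor protein of cytokine receptor signalling, had 0.642, 0.85, 1.21 and 1.86 FPKM with zymosan, against 4.09, 2.42, 4.22 and 5.42 FPKM with LPS (difference -1.23, SE 0.19, adjusted p = 0.012), and at most 0.188 FPKM with PBS. Calm2, a gene for the calcium sensor calmodulin, had 152, 144, 137 and 164 FPKM with zymosan, against 218, 207, 220.0 and 232 FPKM with LPS (difference -0.56, SE 0.09, adjusted p = 0.016). The shift of Calm2 is smaller than 2-fold, the groups did not overlap, and its reads may be shared with near-identical relatives. After rescaling its difference was larger, at -0.78, and did not pass (adjusted p = 0.0617), while with the set term and rescaling it passed (adjusted p = 2.89e-05).

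**Figure D2:**
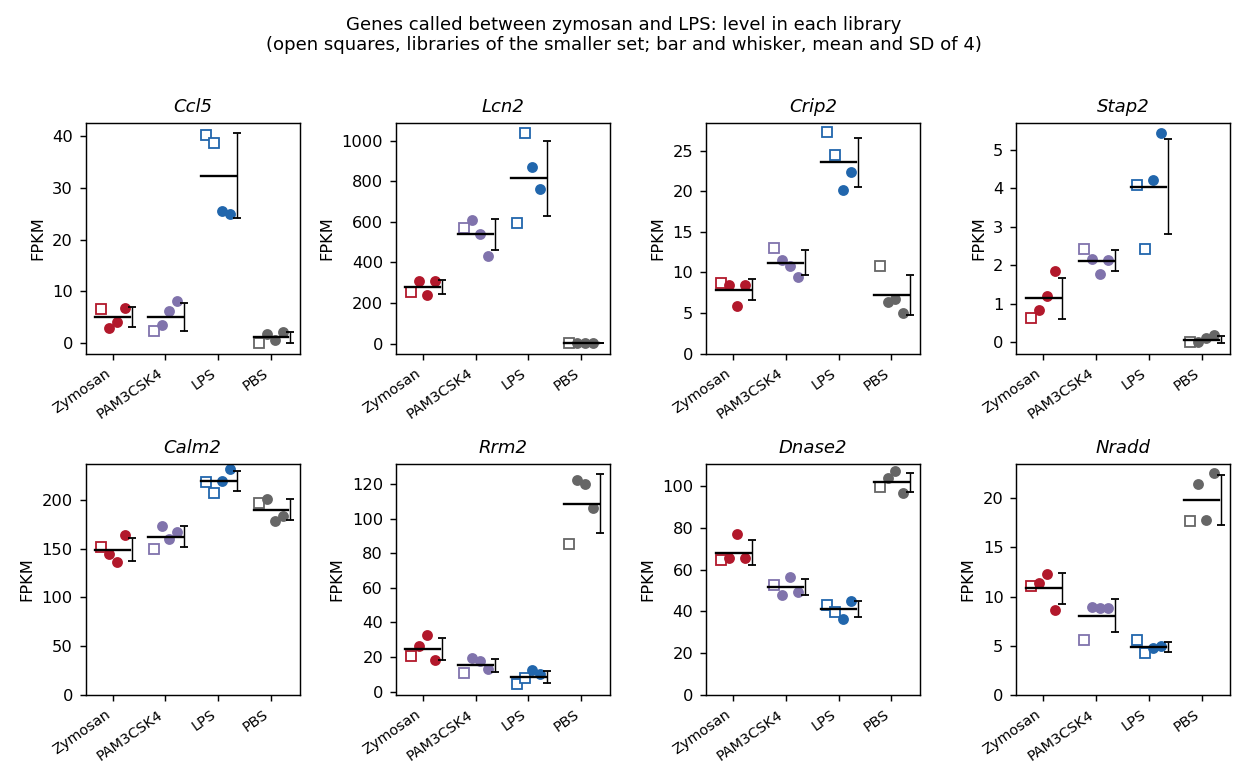
FPKM (vertical axes, linear) of the 8 genes called between zymosan and LPS in each of 16 libraries, grouped as zymosan, PAM3CSK4, LPS and PBS. Open squares are libraries of the smaller set, lines the group means and whiskers the SD (n = 4). Zymosan and LPS libraries do not overlap for any of the 8. On this linear scale the PAM3CSK4 mean is nearer to the zymosan mean than to the LPS mean for Ccl5, Crip2, Stap2 and Calm2, and narrowly for Lcn2 and Nradd. For Rrm2 and Dnase2 it is nearer to the LPS mean.

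The 250 bases before the start of Lcn2 and Stap2 are shown because both genes were lower with zymosan and their windows hold matches to the kappaB consensus, the motif of NF-kB. RefSeq windows (build GRCr8) were matched for 4 of the 8 called genes, Lcn2, Stap2, Crip2 and Nradd. Capitals mark the matches, searched on both strands. The consensus was found in 3.54% of 33469 windows of that length, once in Lcn2, starting 242 bases before the start, and in 2 places in Stap2, starting 102 and 34 bases before it. No match was present in the Crip2 and Nradd windows. A match is a description of letters and no evidence of binding. Lcn2 lies on the minus strand at chr3:36081781-36082030, and Stap2 on the minus strand at chr9:924381-924630.
Lcn2: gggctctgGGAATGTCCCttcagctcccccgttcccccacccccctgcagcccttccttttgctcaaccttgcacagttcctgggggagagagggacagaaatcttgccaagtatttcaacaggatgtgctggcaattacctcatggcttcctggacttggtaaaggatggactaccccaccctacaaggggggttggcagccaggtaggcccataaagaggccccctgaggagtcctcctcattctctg
Stap2: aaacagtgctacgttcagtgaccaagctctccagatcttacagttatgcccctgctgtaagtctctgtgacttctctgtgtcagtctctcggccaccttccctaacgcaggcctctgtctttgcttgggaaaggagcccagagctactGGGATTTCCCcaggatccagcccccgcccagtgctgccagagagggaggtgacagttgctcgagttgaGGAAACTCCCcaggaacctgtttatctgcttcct

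Below the threshold, the genes with the smallest p on this side were Ass1, Egln3, Snurf, Btg2 and Cd69, with adjusted p between 0.104 and 0.219. Ass1, the argininosuccinate synthase that regenerates arginine, averaged 1.84 ± 0.549 FPKM with zymosan and 4.65 ± 1.27 FPKM with LPS (SD, n = 4 each). Egln3, an oxygen-sensing prolyl hydroxylase induced by HIF, averaged 2.58 ± 0.92 and 7.2 ± 2.85 FPKM. Ass1, Egln3, Snurf and Btg2 passed with the set term. Cd69, an early activation antigen, had 39.4, 53.1, 32 and 83.4 FPKM with zymosan, against 127, 88.5, 84.9 and 143 FPKM with LPS, and 116, 173, 128 and 184 FPKM with PAM3CSK4. For Cd69 the PAM3CSK4 libraries were on the side of LPS, not of zymosan. Wfdc21, which encodes a secreted protein with a whey acidic protein domain and was named after its values were seen, had 29.6, 13.4, 16.3 and 25.4 FPKM with zymosan and 62.9, 66.5, 40.3 and 30 FPKM with LPS (adjusted p = 0.253, with the set term 0.0207).

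Metallothioneins bind zinc and copper. Mt2A had 55.3, 19.5, 21.9 and 48 FPKM with zymosan, against 154, 105, 72 and 67.2 FPKM with LPS, and at most 1.04 FPKM with PBS. The groups did not overlap, but the difference of -1.49 (95% interval -2.40 to -0.59) did not pass (adjusted p = 0.281, with the set term 0.0291). Mt1a had 34.9, 11.6, 16.1 and 49.1 FPKM with zymosan, against 74.4, 64.7, 34.3 and 46.5 FPKM with LPS, with overlapping groups. Of 20 tested genes for metallothioneins, zinc and iron handling none was called, and their median difference was 0.16. Mt1a, Mt2A and Lcn2 are also on the list of glucocorticoid target genes, of which 15 were tested. Lcn2 was the 1 gene called there, with a list median of -0.01 and Sgk1 and Dusp1 at 0.27 and -0.04.

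Genes that rose with zymosan relative to LPS were Rrm2, Dnase2 and Nradd. Rrm2, the small subunit of ribonucleotide reductase needed for DNA synthesis, had 20.9, 26.3, 32.6 and 18.5 FPKM with zymosan, against 4.28, 7.81, 12.4 and 9.93 FPKM with LPS (difference 1.46, SE 0.27, adjusted p = 0.0365). PBS libraries had 85.5, 122, 120.0 and 106 FPKM, so that both agonist groups lay well below the vehicle and zymosan was nearer to it. Dnase2, the acid DNase of lysosomes, had 64.5, 65.5, 77.1 and 65.6 FPKM with zymosan, against 43.2, 39.7, 36.5 and 45.1 FPKM with LPS (difference 0.72, SE 0.11, adjusted p = 0.012). The PBS libraries of Dnase2 had 99.9, 104, 107 and 96.7 FPKM. Nradd, a membrane protein with a death domain, had 11.1, 11.4, 12.3 and 8.58 FPKM with zymosan, against 5.55, 4.28, 4.78 and 4.95 FPKM with LPS (difference 1.00, SE 0.19, adjusted p = 0.0448), and averaged 19.9 ± 2.53 FPKM with PBS. After rescaling, which takes out the shift of all genes, the differences of Rrm2, Dnase2 and Nradd were 1.26, 0.49 and 0.80, and Dnase2 and Nradd lost their calls.

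The next genes by p on this side were Il17f, Gpnmb, Fcgr2b, Ccnb2, Tspan4, Nusap1 and RGL1, with adjusted p between 0.104 and 0.148. All 7 passed with the set term. Il17f, a cytokine of the IL-17 family, had 4.63, 7.76, 2.88 and 5.3 FPKM with zymosan, against 0.198, 0, 0.612 and 3.23 FPKM with LPS, and was at 0 in all 4 PBS libraries. LPS replicate 4 lay within the zymosan range, so the groups overlapped. PAM3CSK4 libraries had 2.04, 2.26, 0.231 and 0.585 FPKM. Il17f reached 1 FPKM in all 4 zymosan libraries and in few of the others given here. Its place among the tested genes thus rested mainly on the zymosan group. Fcgr2b, the inhibitory receptor for immunoglobulin G, had 276, 295, 368 and 263 FPKM with zymosan, against 208, 161, 191 and 169 FPKM with LPS, and averaged 83.7 ± 12.1 FPKM with PBS, below both. Gpnmb, a lysosomal glycoprotein of lipid-laden macrophages, had 606, 781, 1094 and 615 FPKM with zymosan, against 201, 243, 368 and 314 FPKM with LPS, and 1238, 1482, 1945 and 1697 FPKM with PBS. The smallest zymosan value of Gpnmb was above the largest LPS value.

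Il10, the anti-inflammatory cytokine that dectin-1 and TLR2 signals are known to induce, had 9.61, 6.52, 12.7 and 13.7 FPKM with zymosan, against 3.91, 2.51, 4.78 and 4.45 FPKM with LPS. The groups did not overlap, and the difference of 1.22 (95% interval 0.62 to 1.83) passed with the set term (adjusted p = 0.0412, against 0.183 without it). With PAM3CSK4 Il10 had 16.2, 17.5, 8.94 and 18.5 FPKM, in or above the zymosan range, and with PBS 0.565 ± 0.406 FPKM (SD, n = 4). Cd36, a scavenger receptor that cooperates with TLR2, had 5.06, 5.64, 8.64 and 3.31 FPKM with zymosan, 3.41, 7.52, 9.43 and 3.34 FPKM with PAM3CSK4, 0.943, 1.14, 2.02 and 1.27 FPKM with LPS and 2, 1.98, 3.66 and 1.22 FPKM with PBS. Its LPS mean was the lowest of these groups, whereas for Il10 the PBS mean was. It passed with the set term (adjusted p = 0.0412) and not without it (0.191), and was named after its values were seen. So was Ltb4r, the leukotriene B4 receptor, at 2.67, 1.37, 1.75 and 3.33 FPKM with zymosan and 0.481, 0, 0.213 and 0.454 FPKM with LPS (adjusted p = 0.0393 with the set term).

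**Figure D3:**
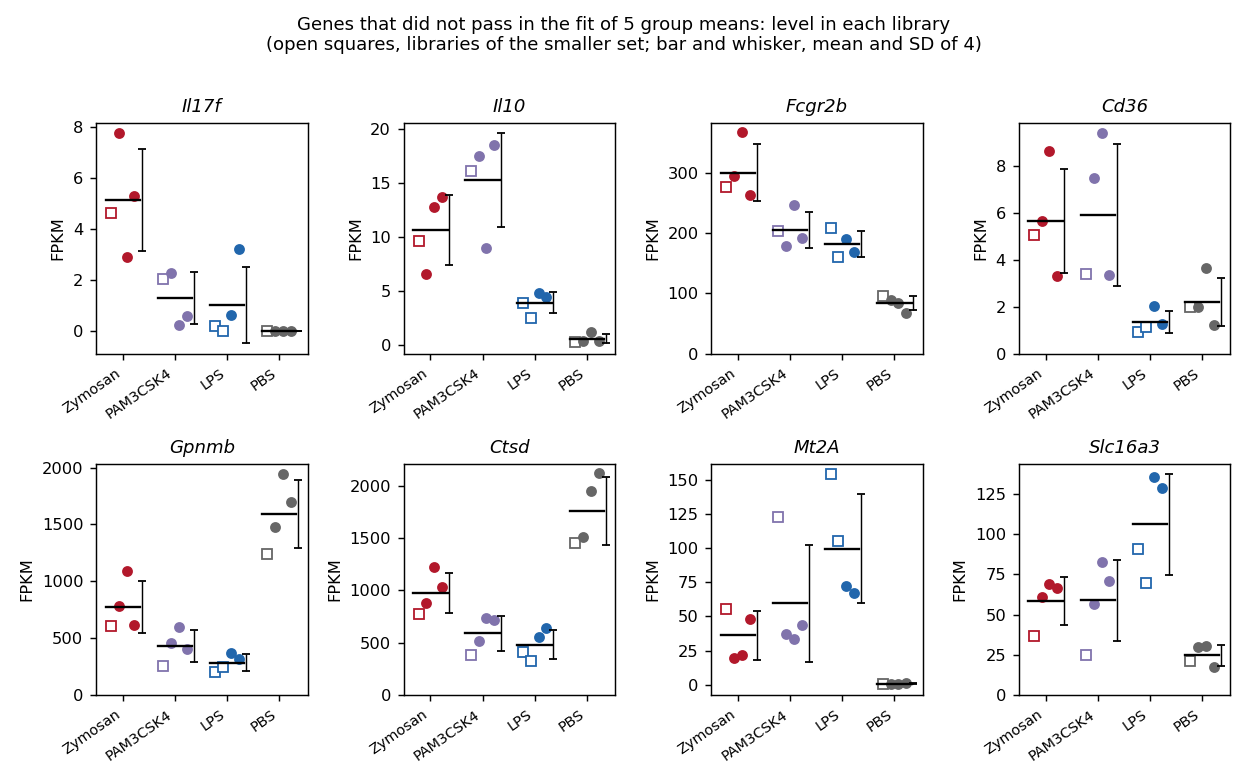
FPKM (vertical axes, linear) of 8 genes that did not pass without a library-set term, in each zymosan, PAM3CSK4, LPS and PBS library, with group mean and SD (n = 4) and open squares for the smaller library set. Il10 and Cd36 are at like levels with zymosan and PAM3CSK4 and lower with LPS, Gpnmb and Ctsd are highest with PBS, and Mt2A and Slc16a3 are highest with LPS.

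Receptors and adaptors of the agonists gave no call. Of 18 tested genes of the TLR4 complex, the other TLRs and their adaptors, none was called, none had an unadjusted p under 0.05, and the groups overlapped for all 18; their median difference was 0.42, and 14 lay above the median of all genes. Tlr4 averaged 8.25 ± 2.84 FPKM with zymosan and 4.86 ± 2.73 FPKM with LPS, Cd14 968 ± 177 and 754 ± 219 FPKM, and Tlr2 178 ± 52.3 and 142 ± 63.1 FPKM (SD, n = 4 each). The 95% interval of Tlr4 was -0.35 to 1.80 and that of Cd14 -0.11 to 0.87. Clec7a itself was low, at 1.45, 4.16, 3.46 and 2.9 FPKM with zymosan and 2.2, 3.67, 4.73 and 3.55 FPKM with LPS, with an interval of -0.68 to 0.27. Of the 28 tested C-type lectin and SYK-CARD9 genes none was called. Cd36, counted there too, was 1 of 2 that passed with the set term, both higher (0.914% of all genes). The other, Fcer1g, the signalling chain shared by several C-type lectins and Fc receptors, averaged 1646 ± 508 FPKM with zymosan and 1444 ± 437 FPKM with LPS; its difference of 0.19 turned to -0.04 on rescaling. Syk and Card9 had intervals of -0.66 to 0.69 and -0.43 to 0.65.

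The main inflammatory cytokines were high with both agonists. Il1b, the precursor of interleukin-1 beta, averaged 10005 ± 1815 FPKM with zymosan and 10771 ± 2023 FPKM with LPS, against 235 ± 40.3 FPKM with PBS (SD, n = 4 each). Its zymosan minus LPS difference was -0.11, with a 95% interval of -0.55 to 0.33. Il6 averaged 521 ± 109 FPKM with zymosan and 513 ± 78 FPKM with LPS (interval -0.56 to 0.59), and Tnf averaged 131 ± 29.3 and 108 ± 31.2 FPKM (interval -0.22 to 0.80). For these 3 genes a 2-fold difference in either direction lies outside the interval. The colony-stimulating factors Csf2 and Csf3, which expand and recruit myeloid cells, had intervals of -0.50 to 0.64 and -0.67 to 0.63. Il23a, a subunit of interleukin-23, had 12.6, 9.05, 4.53 and 18.9 FPKM with zymosan and 21.1, 7.78, 7.01 and 5.39 FPKM with LPS, widely spread in both groups. Of 25 tested cytokines none was called, and the median difference was 0.15. At an unadjusted p under 0.05, 4 were higher and 2 lower (7.3% and 0.813% of all genes). The lower ones were Lta, a relative of Tnf (2.2 ± 1.84 FPKM with zymosan, 5.4 ± 3.85 FPKM with LPS), and Ebi3, a subunit of interleukin-27 (155 ± 26.1 and 216 ± 35.1 FPKM). Besides Il10, the higher ones were Tnfsf15, Hbegf and Il1rn, the interleukin-1 receptor antagonist (119 ± 27.1 FPKM with zymosan, 78.1 ± 19.7 FPKM with LPS).

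**Figure D4:**
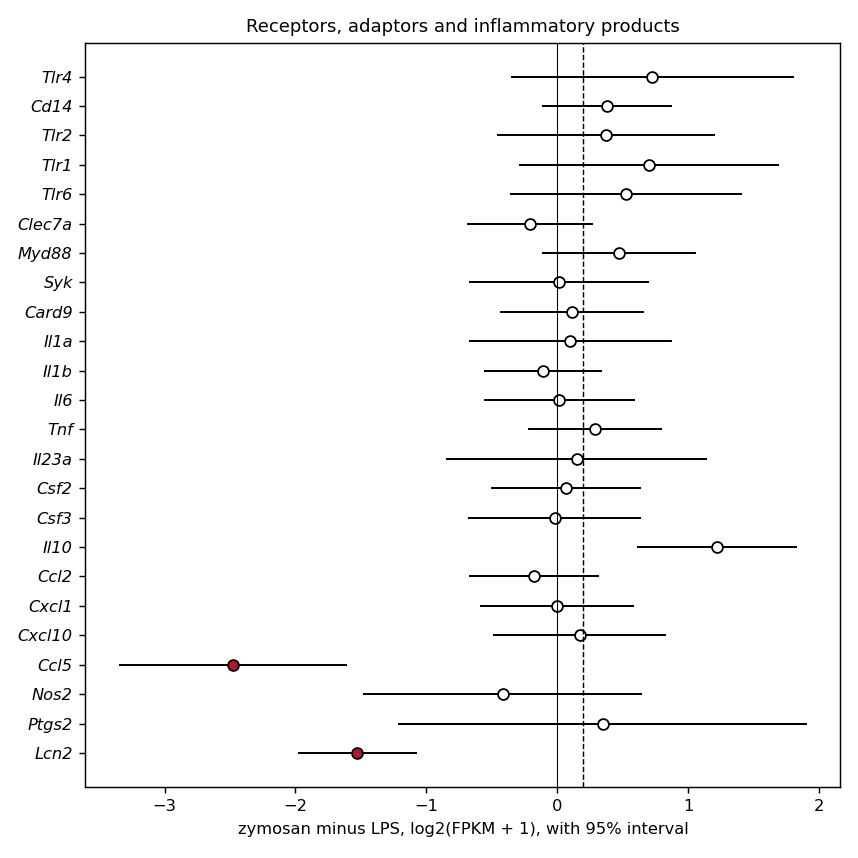
Zymosan minus LPS difference on the log2(FPKM + 1) scale (horizontal axis) with its 95% interval for 24 receptors, adaptors and inflammatory products. Filled points passed at an adjusted p under 0.05, which are Ccl5 and Lcn2, both lower with zymosan, and the dashed line marks the median of all genes, 0.19.

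Among 19 tested chemokines, Ccl5 was the 1 called. The median difference of the list was -0.10, and 3 of the 19 lay above the median of all genes. Ccl2, which recruits monocytes, averaged 6055 ± 776 FPKM with zymosan and 6859 ± 920.4 FPKM with LPS (interval -0.67 to 0.31), Ccl3 7069 ± 961 and 8605 ± 2153 FPKM (interval -0.71 to 0.19), and the neutrophil attractant Cxcl1 2137 ± 308 and 2134 ± 253 FPKM (interval -0.58 to 0.58). For Ccl2, Ccl3 and Cxcl1 a 2-fold difference lies outside the interval, whereas Ccl5 differed by -2.48 on the log2 scale. At an unadjusted p under 0.05, 1 of the 19 was higher and 2 were lower (7.3% and 0.813% of all genes). The higher one was Ccl9 (25.3 ± 9.22 FPKM with zymosan, 14.5 ± 4.78 FPKM with LPS).

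Ccl5 is also known to respond to interferon, and it was not itself on the interferon list. Ifnb1, which encodes interferon beta, had 0.727, 0.65, 3.08 and 2.57 FPKM with zymosan, against 0.229, 2.54, 4.26 and 1.15 FPKM with LPS, and the groups overlapped (interval -0.90 to 0.78). None of the 54 tested interferon and interferon-stimulated genes was called, and the median difference was 0.13, with 23 of the 54 above the median of all genes. After rescaling the median was -0.09, against 0.01 for all genes. At an unadjusted p under 0.05, 2 of the 54 were higher and 3 lower (7.3% and 0.813% of all genes). The genes lower at an unadjusted p under 0.05 were Cxcl11, a ligand of CXCR3 (1.3 ± 1.31 FPKM with zymosan, 3.11 ± 0.619 FPKM with LPS), Bst2, which tethers virions (6.58 ± 1.84 and 11.3 ± 4.17 FPKM), and Ifi27 (227 ± 50.7 and 312 ± 39.5 FPKM). Higher at that level were Ifi47 and Socs1, a feedback inhibitor of cytokine signalling (5.61 ± 1.1 FPKM with zymosan, 2.51 ± 1.09 FPKM with LPS). Cxcl10 averaged 46.5 ± 10.4 FPKM with zymosan and 42 ± 14.2 FPKM with LPS, below the 85.3 ± 31.5 FPKM of PBS libraries in both. Irf7 had an interval of -1.23 to 0.23.

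Inducible enzymes for nitric oxide, prostaglandins and itaconate gave no call. Nos2, the inducible nitric oxide synthase, had 89.7, 315, 268 and 428 FPKM with zymosan, against 204, 169, 476 and 631 FPKM with LPS, and averaged 0.895 ± 0.604 FPKM with PBS. Its libraries of the smaller set, zymosan replicate 1 and LPS replicates 1 and 2, were the lowest of their groups, and the interval of -1.48 to 0.64 is wide. Ptgs2, the inducible cyclooxygenase, had 33, 134, 109.8 and 180.1 FPKM with zymosan and 43.8, 18.1, 187 and 217 FPKM with LPS, with the same libraries lowest and an interval of -1.21 to 1.90. IRG1, which makes itaconate, averaged 94.7 ± 41.3 FPKM with zymosan and 125 ± 54.2 FPKM with LPS. For Nos2, Ptgs2 and IRG1 these libraries do not settle whether the agonists differ by 2-fold. Hmox1, the heme oxygenase under NRF2, averaged 1279.9 ± 268 FPKM with zymosan and 1244 ± 327 FPKM with LPS, with an interval of -0.55 to 0.65, and none of the 29 tested NRF2 targets was called.

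Cell cycle genes had the highest median difference of the lists. Of 39 tested, Rrm2 was the 1 called; 27 were higher and none lower at an unadjusted p under 0.05 (7.3% and 0.813% of all genes), and for 14 the zymosan libraries were all above the LPS libraries (4.48% of all genes). The median difference was 0.78, against 0.19 for all genes, and it was 0.65 with the set term and 0.66 after rescaling. The mean level of the 39 genes on the log2(FPKM + 1) scale was 2.50, 2.91, 3.03 and 2.38 in zymosan libraries, 1.62, 2.65, 2.51 and 2.15 in PAM3CSK4 libraries, 1.61, 1.83, 2.25 and 2.13 in LPS libraries and 4.20, 4.83, 4.63 and 4.40 in PBS libraries. All zymosan libraries were above all LPS libraries, and both groups were more than 1 log2 unit below PBS. With the set term 6 of the 39 passed, all higher (0.914% of all genes). With the set term and rescaling 2 of these did, Rrm2 and Ccnb2 (0.316% of all genes). Among the 6, Pcna, the sliding clamp of DNA replication, averaged 55.7 ± 8.04 FPKM with zymosan and 37.9 ± 4.13 FPKM with LPS, Ccnd1, the G1 cyclin D1, 55.8 ± 9.84 and 34.5 ± 7.29 FPKM, and Cdc20, an activator of the anaphase-promoting complex, 9.53 ± 3.36 and 3.79 ± 1.09 FPKM (SD, n = 4 each). Ccnb2, a mitotic cyclin, averaged 4.08 ± 1.2 FPKM with zymosan and 1.38 ± 0.333 FPKM with LPS. A higher share of dividing cells and more of these transcripts per cell cannot be told apart in such bulk libraries.

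Genes of lysosomes and of disease-associated microglia, a state described in mouse brain with raised lipid handling and phagocytic genes, had list medians above that of all genes, and the distance was smaller after rescaling. Of 70 tested lysosomal hydrolases, membrane proteins and V-ATPase subunits, a list drawn up after values had been seen, Dnase2 was called; 18 were higher and none lower at an unadjusted p under 0.05 (7.3% and 0.813% of all genes), and 8 passed with the set term, all higher (0.914% of all genes), 4 of them also with rescaling. The median difference was 0.37, and 0.15 after rescaling, against 0.19 and 0.01 for all genes, and 62 of the 70 differences were above 0 (88.6%, against 77.5% of all genes). Ctsd, the aspartyl protease cathepsin D, had 772, 881, 1219.8 and 1028 FPKM with zymosan, against 412, 319.9, 549 and 640.4 FPKM with LPS and 1458, 1514, 1956 and 2121 FPKM with PBS. Its zymosan and LPS libraries did not overlap, and it passed with the set term (adjusted p = 0.0296) and not without it (0.281). Ctsb, a cysteine protease, averaged 1383 ± 217 FPKM with zymosan and 867 ± 181 FPKM with LPS, Ppt1, which removes palmitate from proteins, 42.6 ± 3.12 and 25.2 ± 7.46 FPKM, and the dipeptidyl peptidase Dpp7 57.5 ± 11.1 and 33.8 ± 1.46 FPKM. Ctsb, Ppt1 and Dpp7 passed with the set term and not without it. Cd63, a membrane tetraspanin, averaged 1499 ± 256 FPKM with zymosan and 1544 ± 294 FPKM with LPS, with a difference of -0.04.

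Of 31 tested genes of disease-associated microglia and lipid handling none was called, 8 were higher and none lower at an unadjusted p under 0.05 (7.3% and 0.813% of all genes), and the median was 0.36, or 0.14 after rescaling. Differences above 0 were found for 26 of the 31 (83.9%), near the 77.5% of all genes. Besides Gpnmb, Cd36, Ctsb and Ctsd, the list members that passed with the set term were Lpl, lipoprotein lipase, and the fatty acid carrier Fabp4. All 6 were higher with zymosan (0.914% of all genes). Lpl had 44.7, 91.3, 189 and 104 FPKM with zymosan, 17.5, 17.2, 46.5 and 52.8 FPKM with LPS and 222, 480.3, 761 and 642 FPKM with PBS. Spp1, the secreted phosphoprotein osteopontin, had 12059, 399, 13052 and 6362 FPKM with zymosan and 12578, 404, 11895 and 6669.7 FPKM with LPS, with replicate 2 far below the others in both groups. Homeostatic genes of resting microglia gave no call among 29 tested, with 9 higher and none lower at an unadjusted p under 0.05 (7.3% and 0.813% of all genes) and a median of 0.35, or 0.18 after rescaling. Csf1r, the receptor that sustains microglia, averaged 144 ± 15.1 FPKM with zymosan and 106 ± 26.8 FPKM with LPS, against 512 ± 73.2 FPKM with PBS. Cx3cr1, the fractalkine receptor, had 1.9, 3.99, 4.73 and 7.95 FPKM with zymosan and 0.383, 4.1, 1.36 and 3.49 FPKM with LPS, against 68.7 ± 23.9 FPKM with PBS, and the groups overlapped. Of 28 tested genes of phagocytosis, scavenger receptors and the NADPH oxidase none was called, and 7 were higher and none lower at an unadjusted p under 0.05 (7.3% and 0.813% of all genes). Their median was 0.27, or 0.07 after rescaling.

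Of 26 tested glycolysis and hypoxia genes none was called. At an unadjusted p under 0.05 none was higher and 5 were lower (7.3% and 0.813% of all genes), while 11 of the 26 differences were above 0 and 15 below. The median was -0.06, and -0.29 after rescaling, against 0.19 and 0.01 for all genes. With the set term 5 passed, all lower with zymosan (0.169% of all genes). All 5 passed with the set term and rescaling as well (0.418% of all genes). They were Egln3, Slc16a3, Tpi1, Pgam1 and Ldha. Slc16a3, the lactate exporter MCT4, had 36.7, 61.2, 68.8 and 66.8 FPKM with zymosan, against 90.8, 69.8, 136 and 129 FPKM with LPS, without overlap, and averaged 58.8 ± 25.1 FPKM with PAM3CSK4 and 24.7 ± 6.52 FPKM with PBS (adjusted p = 0.0246 with the set term, 0.538 without it). Ldha, lactate dehydrogenase A, averaged 782 ± 63.3 FPKM with zymosan and 998 ± 219 FPKM with LPS, Pgam1, phosphoglycerate mutase, 326 ± 58.8 and 420.3 ± 96.6 FPKM, and Tpi1, triose phosphate isomerase, 156 ± 26.4 and 223 ± 44.4 FPKM. In each of these 3 the groups overlapped, through LPS replicate 2 and, for Pgam1, also through LPS replicate 1. Other enzymes of the pathway, Aldoa, Gapdh and Eno1, had differences of -0.15, -0.16 and -0.01.

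**Figure D5:**
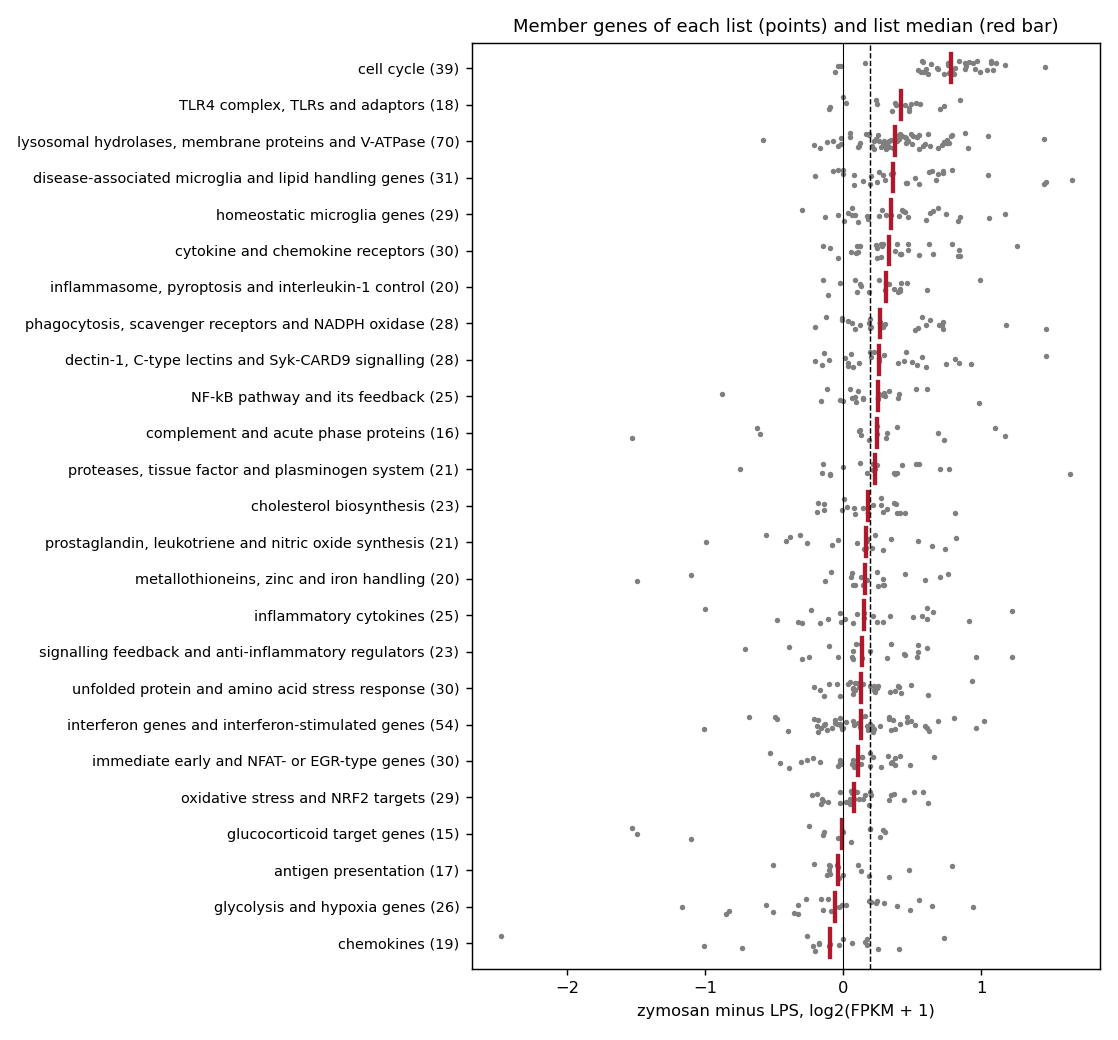
Zymosan minus LPS difference on the log2(FPKM + 1) scale (horizontal axis) of the tested members of each gene list, with the number of members in brackets and the list median as a red bar. The dashed line is the median of all 8858 genes, 0.19; cell cycle genes have the highest list median (0.78) and chemokines the lowest (-0.10).

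The other lists held no called gene apart from Lcn2 among 16 tested complement and acute phase genes. Their medians were 0.25 for 25 NF-kB pathway and feedback genes, 0.33 for 30 cytokine and chemokine receptors, 0.31 for 20 inflammasome genes and 0.11 for 30 immediate early and NFAT- or EGR-type genes. In the NF-kB list, Icam1, an adhesion molecule, had 55, 124, 97.4 and 109 FPKM with zymosan and 32.2, 30.5, 72.6 and 64 FPKM with LPS, and passed with the set term (adjusted p = 0.0139), while Nfkbia and Bcl2a1 had differences of -0.00 and 0.25. Egr2, a transcription factor that dectin-1 signals are known to induce, had 9.36, 15.6, 13.8 and 10.3 FPKM with zymosan, against 5.32, 6.76, 9.3 and 8.2 FPKM with LPS; the groups did not overlap, but the difference of 0.66 did not pass (adjusted p = 0.61, with the set term 0.227). Egr3 stayed at or below 2.86 FPKM in all 8 libraries. Medians were -0.04 for 17 antigen presentation genes, 0.18 for 23 of cholesterol biosynthesis, 0.13 for 30 of the unfolded protein and amino acid stress response, 0.08 for the NRF2 targets, 0.16 for 21 of prostaglandin, leukotriene and nitric oxide synthesis, 0.23 for 21 proteases and plasminogen genes and 0.14 for 23 feedback and anti-inflammatory regulators.

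Set against PAM3CSK4, zymosan gave 0 called genes of 8858 (0%), with 299 at an unadjusted p under 0.05, a lowest adjusted p of 0.26 and a median difference of 0.09. The interval of the difference lay within 1 log2 unit either way for 82.1% of genes. With the set term 8 genes passed, and they were higher with zymosan for Csf1r, Cd68, Ccnd1, Plau, Tlr7 and Atp2a3 and lower for Cd69 and Batf. Csf1r averaged 144 ± 15.1 FPKM with zymosan and 92.6 ± 21.6 FPKM with PAM3CSK4, and Cd68, a lysosomal glycoprotein of macrophages, 235 ± 31.2 and 157 ± 18.1 FPKM (SD, n = 4 each). Ifnb1 averaged 1.76 ± 1.25 FPKM with zymosan and 6.88 ± 2.72 FPKM with PAM3CSK4 and did not pass (adjusted p = 0.902). That some genes passed against LPS and none against PAM3CSK4 does not show that the 2 comparisons differ, and they share the zymosan libraries. For the 8 genes called against LPS, the differences against PAM3CSK4 were 0.06 for Ccl5, -0.94 for Lcn2, -0.46 for Crip2, -0.57 for Stap2, -0.12 for Calm2, 0.67 for Rrm2, 0.40 for Dnase2 and 0.40 for Nradd.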

How the data were processed

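The authors deposited 1 table of FPKM values for 17310 gene symbols and no counts. Per the submitters' processing notes, the build was rn6 and the tools included Cufflinks 2.2.1, HISAT2 2.0.5.1, DESeq2 and featureCounts 1.4.6, their roles not being given. Per the labels' protocols, Smart-Seq2 and Nextera XT were used for the libraries. FPKM is relative to each library's total, so genes that gain strongly push down the rest, and without counts the counting error is unknown. Whether libraries of 1 group stem from different animals or cultures is not in the labels, and the p-values then reflect the spread of these samples alone, possibly a technical one. Some genes, given below, differed between the libraries of a group by replicate number, and did so in all 5 groups. What the number stands for was not tested. Symbols were matched to RefSeq names (assembly GRCr8), 14814 by symbol and 2084 by synonym.

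Values were tested as log2(FPKM + 1), which understates changes of low genes, over 8858 genes (1 FPKM or more in 4 or more libraries). Group means were fitted to all 20 libraries in limma 3.58.1 (R 4.3.3) with a mean-variance trend. Contrasts were two-sided, with Benjamini-Hochberg adjustment over all genes tested. The fit was checked on simulated data with independent noise in each library. That check had no library sets and no effect of the replicate number, so it cannot vouch for the p-values here. Depth ratios are the commonest ratios of values below 1 FPKM between libraries. Gene lists are described by counts and medians, with no test.

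The comparison, the gene lists and the library sets were chosen with earlier results of these data known. Named genes are the called genes with the largest differences, without overlap between groups and with a higher mean of at least 5 FPKM, up to 15 a direction. Where a direction had fewer than 10, the smallest p-values filled it to 10, which takes in Stap2. A fixed set of receptors and mediators and examples of each list were added. Genes outside the rule, among them Cd36, Ltb4r, Wfdc21, Icam1, Lpl, Fabp4, Ctsd, Ctsb, Ppt1, Dpp7, Slc16a3, Ldha, Pgam1, Tpi1, Cdc20, Socs1, Cxcl11, Bst2, Lta, Ebi3 and Ccl9, were named after their values were seen. The alternatives tried were no filter, a pseudocount of 0.1 FPKM, median-ratio rescaling, library quality weights, a block for the replicate number, only the 2 groups compared, a library-set term with and without rescaling, only the 13 libraries of the larger set, exact zeros as missing where the other 3 libraries of the group reached 5 FPKM (41 values), and each library left out. Plots were drawn with Python 3.11.15 and matplotlib 3.10.9.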

Additional observations from a re-analysis of the deposited data

Results flagged for a closer look

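In 14 of the 249 groups of 4 libraries examined, 1 library lay far from the other 3, and chance alone flags about 1 group in 20. Among the called genes, Dnase2 was 77.1 FPKM in zymosan replicate 3, against 64.5 to 65.6 FPKM in the other 3, and Crip2 was 5.92 FPKM in zymosan replicate 3, against 8.44 to 8.74 FPKM. Both flagged values lie farther from the LPS libraries than the other 3. Zymosan replicate 1, of the smaller library set, was low for Tlr2 (100.0 FPKM, against 199 to 211 FPKM), Il1b (7301 FPKM, against 10720.2 to 11199 FPKM) and Ppt1 (37.9 FPKM, against 44.0 to 44.4 FPKM), and high for Cd63 (1880 FPKM, against 1349 to 1413 FPKM). Zymosan replicate 4 was low for Ccnb2 (2.28 FPKM, against 4.52 to 4.78 FPKM) and Bcl2a1 (457 FPKM, against 576 to 599 FPKM), and high for Hmox1 (1679 FPKM, against 1109.6 to 1186 FPKM) and Csf2 (139 FPKM, against 85.2 to 86.4 FPKM). Among LPS libraries, replicate 4 was high for Cd14 (1083 FPKM, against 640.5 to 651 FPKM) and replicate 1 for Il23a (21.1 FPKM, against 5.39 to 7.78 FPKM). LPS replicate 2 was low for Il6 (396 FPKM, against 544 to 559.5 FPKM) and high for Egr3 (2.86 FPKM, against 0.193 to 0.437 FPKM). The part of the library sets in these values was not tested.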

How the results depend on the processing

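The count of calls, 8 in the main fit with 3 higher and 5 lower with zymosan, differed between the alternatives. The counts in all, higher and lower were 183, 151 and 32 with library quality weights, 96, 81 and 15 with the library-set term, 65, 28 and 37 with that term and rescaling, 16, 10 and 6 in the larger set alone and 3, 0 and 3 with only the 2 groups in the fit. Lower calls numbered 8 after rescaling and 3 with a pseudocount of 0.1 FPKM. Leaving out 1 library gave 2 to 9 calls, 0 to 4 higher and 2 to 5 lower. Against PAM3CSK4, where 0 were called, there were 18 with weights, 8 with the set term, 3 with that term and rescaling, 1 without a filter and 1 in the larger set. The causes of these moves were not tested. Every call among the 8 kept its direction in each alternative, and Lcn2 and Crip2 passed in all 18; Ccl5 ranged from -2.69 to -2.29 and passed in 11.

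With the replicate number as a block, 152 genes were called, 132 higher and 20 lower, and 8 against PAM3CSK4. All 8 calls of the main fit were also made with the block. Residuals of same-numbered zymosan and LPS libraries correlated at 0.51, -0.28, 0.57 and 0.44. Of the 4 zymosan libraries, 2 correlated best with the LPS library of their own number. These residuals also carry the library sets, and zymosan and LPS replicate 2 are in different sets. The correlations therefore cannot decide whether the numbers pair the libraries. The labels state no pairing, and the main fit used none. Some genes followed the number in all 5 groups, as given below, and what the number stands for was not tested. Of the named genes not called, 129 of their values under alternatives passed the threshold, and 167 changed sign without passing. Depth limits what can be said of genes near 1 FPKM, such as Snurf and Nusap1, whose counting error is unknown.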

Other observations

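Some genes followed the replicate number in all 5 groups, which touches how far the 4 libraries of a group share sources with those of another. These genes were chosen after their values were seen, and the part of the number in the comparison of zymosan with LPS was not tested beyond the block fit. Spp1 was at 399 and 404 FPKM in zymosan and LPS replicate 2, and at 280, 316 and 415 FPKM in replicate 2 of PAM3CSK4, morphine and PBS, whereas the other 15 libraries lay between 5848 and 15392 FPKM. RT1-CE11, a gene of the rat major histocompatibility complex whose reads may be shared with near-identical relatives, was listed at 0 in replicate 1 of all 5 groups and at 10.9 FPKM or more in every other library. Ldhb, a lactate dehydrogenase subunit, was at 2.62 FPKM in zymosan replicate 4, 4.99 FPKM in LPS replicate 4 and at most 4.99 FPKM in replicate 4 of any group, with at least 13.8 FPKM in all others. In the other 3 zymosan libraries Ldhb had 28.3, 38.2 and 27.7 FPKM, against 53.5, 57.8 and 49.6 FPKM in the LPS libraries of the same numbers. Over all 8858 tested genes, the 5 libraries of 1 number lay wholly above the other 15 for 22, 4, 14 and 29 genes and wholly below for 82, 9, 8 and 7 genes, for numbers 1 to 4, and none of the 8 called genes was among them. All 5 libraries of number 1 are in the smaller library set, and so are LPS and morphine replicate 2, which are among the other 15 libraries in these counts. RT1-CE11 had 13.1 FPKM in LPS replicate 2 and 10.9 FPKM in morphine replicate 2.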
